A study of Homo sapiens with 6 samples.

Results

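A set of 10 genes of the endophilin, dynamin, amphiphysin-like and synaptojanin families, whose proteins bend, cut and uncoat endocytic vesicles, was followed in HEK293T cells after transfection of a miR-34a duplex. The 10 genes, SH3GL1, SH3GLB1, SH3GLB2, DNM1, DNM2, DNM3, BIN1, BIN3, SYNJ1 and SYNJ2, were taken by name from a table of 63140 genes. They were selected on a measured value, the log2 fold change of SH3GL1 between the 2 groups of libraries, whose fall was among the largest, and on their kinship with it. The changes of these 10 genes are therefore given as a description, without p-values. HEK293T is an immortalised human embryonic kidney line that carries the SV40 large T antigen. The control group (3 libraries) received the AllStars negative control, which the labels call an siRNA in one place and a miRNA in another, and the other group (3 libraries) received the miR-34a duplex. Both groups were transfected, and total RNA was collected 18 h later. The replicates are described as biological. All libraries come from 1 cell line, and the amount of duplex is not given in the sources used here.

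Endophilins carry a crescent-shaped BAR domain that bends membrane and an SH3 domain that binds the proline-rich tails of dynamin and synaptojanin. Dynamin is the GTPase that constricts and cuts the neck of a budding vesicle, and synaptojanin removes the phosphoinositide that holds the clathrin coat to the plasma membrane. The A-type endophilins and SYNJ1 are best known from synaptic vesicle recycling, while SH3GL1 and DNM2 are the broadly expressed members that serve endocytosis in most cells. A microRNA guides Argonaute proteins to an mRNA mainly through its seed, the bases near its 5′ end, most effectively when the match lies in the 3′ untranslated region (UTR).

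The sequences below show the guide strand and some of the matches to its seed in these genes. A 3′ UTR 7mer-m8 and a coding 7mer-m8 of DNM1 and a coding 7mer-A1 of BIN1 are not printed and are given with those genes. No 6mer is printed. In miR-34a-5p the capitals mark the seed, bases 2 to 8, and in the target sites the capitals mark the bases that match the seed or face its first base. A 7mer-m8 matches bases 2 to 8 (CACTGCC), a 7mer-A1 matches bases 2 to 7 followed by an A (ACTGCCA), an 8mer has both (CACTGCCA) and a 6mer is the bare ACTGCC. Only the strand of the mRNA was searched, and each match was counted once, under its longest class. The mature miRNA is from RefSeq (GRCh38.p14) and the sites are from GENCODE release 29 transcripts (GRCh38). The long and short forms of DNM3 are transcripts with different last exons, not longer and shorter versions of the same 3′ UTR.
miR-34a-5p: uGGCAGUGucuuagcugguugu
SH3GL1 3′ UTR, 7mer-m8: gacgggggcccggccCACTGCCt
SYNJ1 3′ UTR, 8mer: gattttgtctcctgCACTGCCAa
DNM3 3′ UTR, long form, 7mer-m8: atagtcccacagttgCACTGCCc
DNM3 3′ UTR, short form, 7mer-m8: aattctttacaaaatCACTGCCc
DNM1 3′ UTR, 7mer-A1: tctgctttctctccaACTGCCAg
SYNJ2 coding exon 3, 8mer: gaaatctacaaaatCACTGCCAc
SYNJ2 coding exon 21, 8mer: gcccccgtgtctccCACTGCCAa

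SH3GL1 fell to 45.8% of its control level, DNM3 and SYNJ1 were higher, and the other 7 genes did not pass the test. Of the 10 genes, 1 was called lower and 2 were called higher (edgeR quasi-likelihood test, Benjamini-Hochberg adjusted p under 0.05 over all genes). Over all 17427 genes tested, 12.1% were called in either direction, 6.7% lower and 5.38% higher. All 10 genes passed the filter on low counts. The ranges of the groups in CPM (reads of a gene per 1000000 reads of its library, scaled by TMM) did not overlap for 4 of the 10 genes, with 1 below the control and 3 above it. Over all tested genes the ranges were apart for 27.3%, with 14.2% below and 13.1% above. The median log2 fold change was -0.04 over the 10 genes and -0.004 over all tested genes. Nothing about the set is read from these counts, since the contrast was used to choose it. In bulk RNA, fewer cells with a transcript and less of it per cell cannot be told apart.

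Of the facts that concern the whole table, total counts ranged from 24728662 to 36650331 per library. PAX2, LHX1, NEFL and NEFM, genes that this line is known to express, passed the filter on low counts. Of 11 markers of blood, endothelium, fibroblasts and keratinocytes, COL1A1 alone passed it, and the summed levels of the blood, endothelial and keratinocyte lists were at most 0.286 CPM in any library.

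SH3GL1 encodes endophilin A2, the A-type endophilin of non-neuronal cells (ENSG00000141985, chr19:4360370-4400547, GRCh38, minus strand). The control replicates 1, 2 and 3 held 123, 124 and 116 CPM of its mRNA, and the corresponding miR-34a replicates 63.7, 52.5 and 50.6 CPM. The lowest control library lay far above the highest miR-34a library, so the groups did not overlap. The mean went from 121 ± 4.43 to 55.6 ± 7.07 CPM (SD, n = 3 each), which is 45.8% of the control, and the log2 fold change was -1.13 ± 0.08 (SE), or 2.19-fold. Of all tested genes, 51 had a lower log2 fold change, as did 11 of the 10289 genes whose mean log2 CPM was 3 or more. Its exons overlap those of the antisense gene AC007292.1 over 194 bases, 5.26% of their length, and that gene stood at 1.17 CPM in the control.

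**Figure D1:**
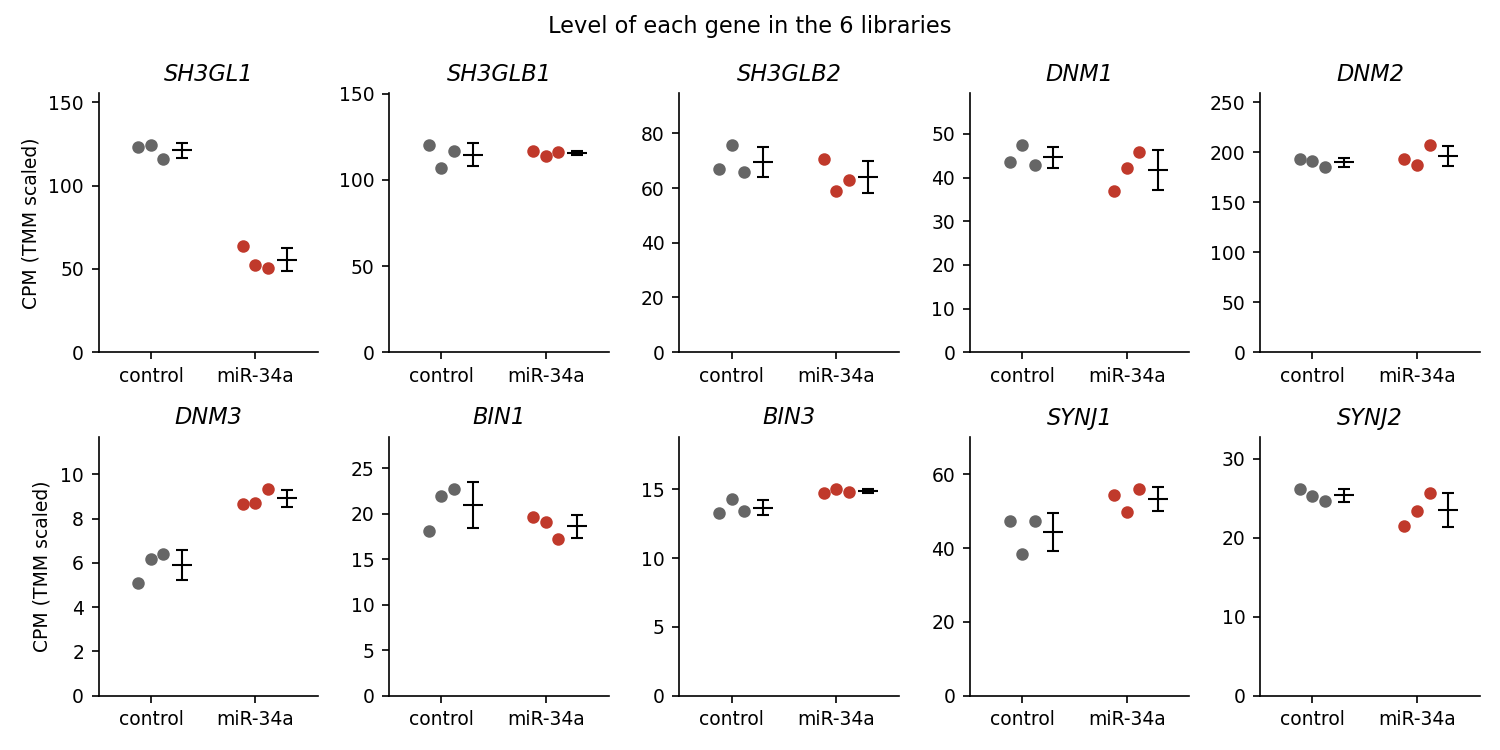
Level of each of the 10 genes in CPM (vertical axes from 0, TMM scaled) in the 3 control libraries (grey) and the 3 miR-34a libraries (red), replicates 1 to 3 from left to right, with the group mean and SD beside them (black). SH3GL1 dropped from between 116 and 124 to between 50.6 and 63.7 CPM, DNM3, BIN3 and SYNJ1 lay higher in the 3 miR-34a libraries, and the groups of the other genes overlapped.

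The 3′ UTR of SH3GL1 holds a single match of 7 or 8 bases, the 7mer-m8 printed above. It lies in the last of 10 exons at chr19:4361208-4361214 (GRCh38, minus strand), and starts at base 386 of a 3′ UTR of 1230 bases. A 6mer follows at chr19:4360870-4360875. The 7mer-m8 was in 2 of the 3 coding transcripts that have an annotated stop codon and a 3′ UTR. Beyond the seed, the minimum-energy pairing predicted by RNAduplex joined 5 more bases of the miRNA to the site, for 12 paired bases and an energy of -19.1 kcal/mol. That is 1 of the 2 lowest energies among the 3′ UTR sites of these genes, the other being the long form of DNM3, also at -19.1 kcal/mol.

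Among 12943 tested genes with a 3′ UTR of at least 50 bases, 1018 (7.87%) had exactly 1 match of 7 or 8 bases and that match was a 7mer-m8. Their median log2 fold change was -0.08, with a range from -1.65 to 1.26, and 15.1% of them were called lower and 4.62% higher. Over all 12943 genes the median was -0.008, with 8.43% called lower and 6.74% higher. Of the 8940 genes with no match, 4.90% were called lower. SH3GL1, which was chosen for its fall, stood near the lower end of the class of 1018 genes. Of these, 6, itself included, had a log2 fold change at or below its own.

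The B-type endophilins held no 7mer or 8mer in the 3′ UTR of any coding transcript, and neither was called. SH3GLB1, endophilin B1 or BIF-1, works on intracellular membranes and binds UVRAG in the autophagy pathway. It stood at 120.2, 107 and 117 CPM in the control and 117, 114 and 116 CPM with miR-34a. These values interleave, with control replicate 2 lowest. The log2 fold change was 0.01 ± 0.07 (SE), with a 95% interval from -0.13 to 0.15. Its 3′ UTR of 4941 bases, the longest among the transcripts used for the 10 genes, holds 1 bare 6mer.

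SH3GLB2, endophilin B2, is a close relative of SH3GLB1. It stood at 67.0, 75.7 and 65.8 CPM in the control and 70.5, 59.0 and 62.9 CPM with miR-34a. The groups overlapped, and the log2 fold change was -0.12 ± 0.08 (SE), with a 95% interval from -0.28 to 0.05. SH3GLB2 shares 0.895% of its exonic length with NUP188, a nuclear pore gene on the opposite strand that was not called.

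The A-type relatives SH3GL2 and SH3GL3, known from brain and testis and not among the 10 genes, were detected at lower levels. Neither had a match in the 3′ UTR of the transcript with the longest coding sequence. Matches in their other coding transcripts are not reported here. SH3GL2 averaged 6.02 ± 0.599 CPM in the control and 6.47 ± 0.358 with miR-34a (SD, n = 3; log2 fold change 0.11 ± 0.14, edgeR adjusted p = 0.71). SH3GL3 averaged 15.4 ± 2.49 and 15.5 ± 1.02 CPM (0.01 ± 0.11, edgeR adjusted p = 0.96).

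The make-up of endophilin mRNA followed from these values. To set genes side by side, CPM was divided by the length of each gene's merged exons in kb. On that scale SH3GL1, SH3GL2 and SH3GL3 together summed to 39.7 ± 0.718 CPM per kb in the control and 22.1 ± 1.77 with miR-34a (SD, n = 3). SH3GL1 made up 82.6, 85.2 and 80.7% of that sum in the control libraries and 71.6, 67.3 and 65.4% in the miR-34a libraries. It remained the most abundant of the 3 in every library. Of all 5 endophilins its share went from 49.4 ± 1.46% to 31.1 ± 2.25%, and SH3GLB1 held the largest mean share with miR-34a, 34.8 ± 1.63%. In miR-34a replicate 1, however, SH3GL1 still held slightly more than SH3GLB1, 33.6% against 33.0%. With the length of the longest coding transcript in place of merged exons, the share of SH3GL1 among the 5 went from 43.4 ± 0.794% to 26.7 ± 1.76%, and SH3GLB2 then held the largest share with miR-34a, 39.1 ± 1.07%.

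**Figure D2:**
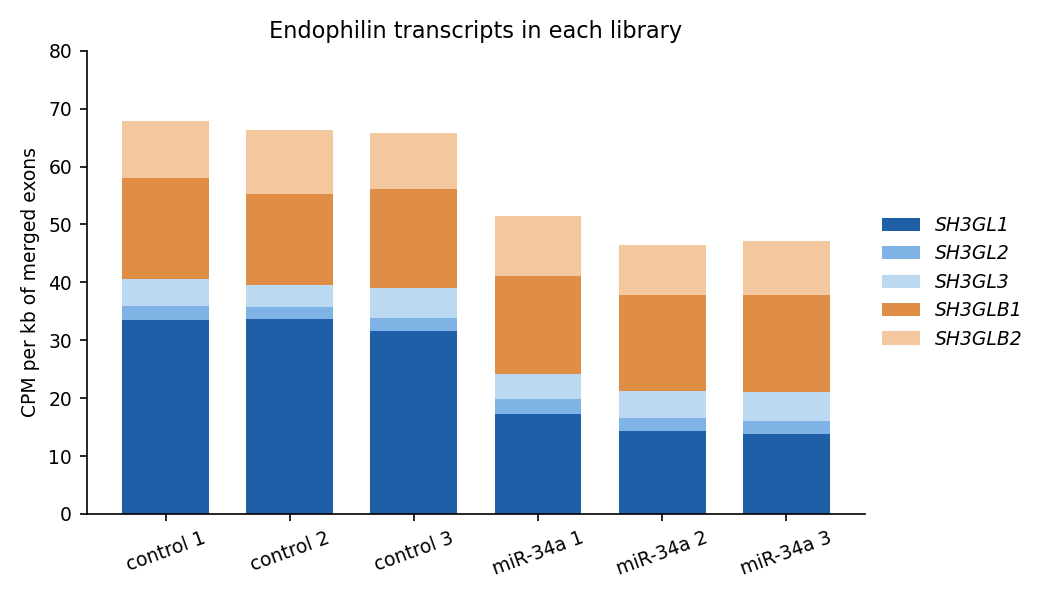
Stacked level of the 5 endophilin genes in each library, in CPM per kb of merged exons. The dark blue part, SH3GL1, takes 49.4% of the bar on average in the control libraries and 31.1% in the miR-34a libraries, while the parts of SH3GLB1 and SH3GLB2 (orange) keep about the same height.

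Of the dynamins, none was called lower. DNM2, the ubiquitous dynamin and the most abundant one here, stood at 194, 191 and 185 CPM in the control and 193, 188 and 207 CPM with miR-34a. The groups overlapped, and the log2 fold change was 0.05 ± 0.07 (SE), with a 95% interval from -0.09 to 0.18. Its coding sequence holds 1 bare 6mer, and its 3′ UTR none in the transcript with the longest coding sequence. DNM2 shares 5.77% of its exonic length with TMED1, a cargo receptor of the early secretory pathway on the opposite strand, for which the shared part is 51.3%. TMED1 fell from 10.1 to 6.95 CPM on average (log2 fold change -0.55 ± 0.13, edgeR adjusted p = 0.0042), and since the library kit does not mark strand its reads and those of DNM2 cannot be told apart there.

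DNM1, the dynamin of nerve terminals, stood at 43.7, 47.4 and 42.8 CPM in the control and 37.02, 42.3 and 45.9 CPM with miR-34a. The ranges overlapped, and the log2 fold change was -0.09 ± 0.08 (SE), with a 95% interval from -0.26 to 0.08. DNM1 carries more seed matches than SH3GL1. Its 7mer-A1, printed above, lies at chr9:128254646-128254652 in the last exon and occurs in 2 of 10 transcripts, and a 7mer-m8 lies in coding exon 7 at chr9:128222222-128222228. A further 3′ UTR 7mer-m8 at chr9:128253339-128253345 occurs in 1 of the 10. The table also lists 18 DNM1 pseudogenes, summing to 2.37 CPM in the control, of which DNM1P35 alone passed the filter. DNM1 also shares 0.427% of its exonic length with CIZ1, a cell-cycle gene on the opposite strand, which fell (log2 fold change -0.29 ± 0.07, edgeR adjusted p = 0.0039).

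DNM3, a dynamin of neurons and testis and the rarest of the 10 genes per kb (ENSG00000197959, chr1:171841498-172418466, plus strand), rose. Control replicates stood at 5.11, 6.19 and 6.40 CPM, and miR-34a replicates at 8.66, 8.73 and 9.35 CPM. Every miR-34a library lay above every control library. The log2 fold change was 0.59 ± 0.13 (SE), a 1.51-fold rise, and it was called higher in all 12 alternative fits, with values from 0.51 to 0.65. DNM3 made up 2.77 ± 0.356% of dynamin mRNA per kb in the control and 4.09 ± 0.0557% with miR-34a (SD, n = 3), against 75.2 ± 0.980% and 75.8 ± 1.38% for DNM2.

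No match of 7 or 8 bases lies in the 3′ UTR of the DNM3 transcript with the longest coding sequence, which is 513 bases long. Other DNM3 transcripts end elsewhere. A 7mer-m8 at chr1:172410045-172410051, printed above as the long form, occurs in 2 of 6 transcripts, in a 3′ UTR of up to 4876 bases. Another at chr1:172133318-172133324, printed as the short form, occurs in 1. That transcript ends in a different last exon, its exon 15, with a 3′ UTR of 495 bases, and is not the one with 513 bases. The table gives 1 count per gene, so which of these ends the cells use cannot be read from it.

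**Figure D3:**
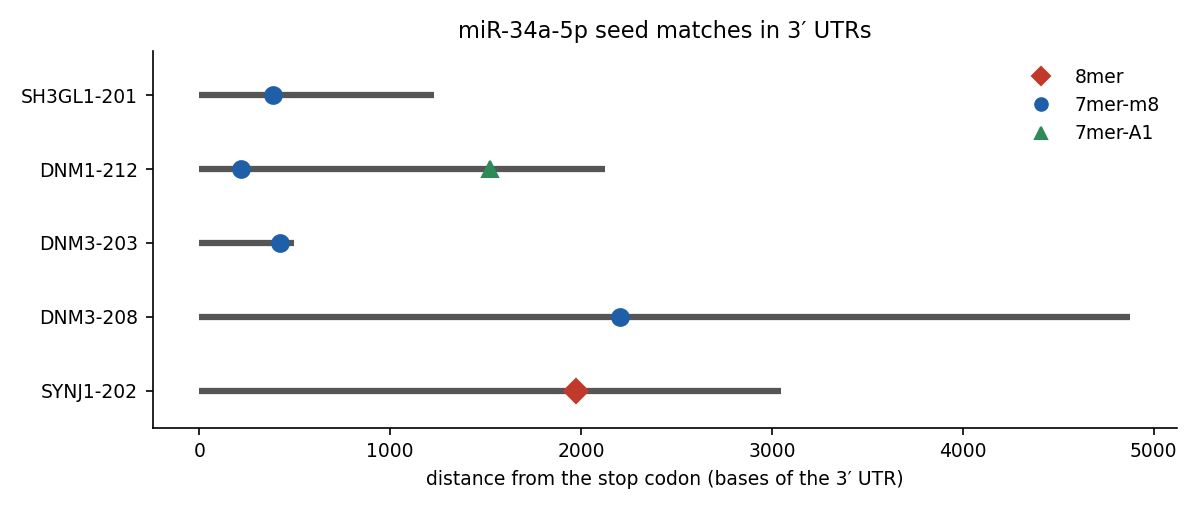
Seed matches of miR-34a-5p of 7 or 8 bases in the 3′ UTRs of these genes, each drawn to scale from the stop codon on the annotated transcript with the longest 3′ UTR that holds the match. SH3GL1 has 1 match, a 7mer-m8 at base 386, while the 8mer of SYNJ1 and the matches of DNM1 and DNM3 lie in genes that were not called lower.

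Neither amphiphysin-like gene was called. BIN1, or amphiphysin 2, tubulates membrane and binds dynamin through its SH3 domain. It stood at 18.1, 21.98 and 22.7 CPM in the control and 19.6, 19.1 and 17.2 CPM with miR-34a, and the ranges overlapped. The log2 fold change was -0.18 ± 0.10 (SE), with a 95% interval from -0.38 to 0.03. BIN1 has no 3′ UTR match in any coding transcript and 1 coding 7mer-A1, in exon 6.

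BIN3 has a BAR domain but no SH3 domain. It stood at 13.3, 14.3 and 13.4 CPM in the control and 14.7, 15.03 and 14.8 CPM with miR-34a. The groups did not overlap, but the gene was not called, with a log2 fold change of 0.12 ± 0.10 (SE) and a 95% interval from -0.08 to 0.32. BIN3 shares 21.6% of its exonic length with the more abundant CCAR2, a nuclear regulator of deacetylation, on the opposite strand. CCAR2 had a log2 fold change of 0.12 ± 0.07 (edgeR adjusted p = 0.32), and the value of BIN3 is uncertain for that reason. Their relative AMPH, amphiphysin 1, had a log2 fold change of -0.16 ± 0.10 (edgeR adjusted p = 0.36).

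Of the synaptojanins, SYNJ1 was called higher and SYNJ2 was not called. Whether they differ from each other was not tested. SYNJ1, the phosphatase that endophilin brings to the coated vesicle (ENSG00000159082, chr21:32628759-32728048, minus strand), stood at 47.4, 38.4 and 47.2 CPM in the control and 54.3, 49.8 and 56.1 CPM with miR-34a. All miR-34a libraries lay above the control libraries, with control replicate 2 well below the rest. The log2 fold change was 0.27 ± 0.08 (SE), a 1.21-fold rise. That call was lost without control replicate 2 (log2 fold change 0.17), without miR-34a replicate 1 (0.26) and without miR-34a replicate 3 (0.23), and kept in the other 9 alternative fits.

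SYNJ1 is also the gene of the set with a 3′ UTR 8mer, the longest class of match. The site, at chr21:32629822-32629829 (minus strand), occurs in 5 of 7 coding transcripts, in the longest of them at base 1976 of a 3′ UTR of 3046 bases. The transcript with the longest coding sequence lacks it, because its annotated 3′ UTR is only 5 bases long, so SYNJ1 was not classed in the search of 1 transcript per gene. RNAduplex paired 9 bases of the miRNA with the site, 1 of them beyond base 8, at -16.0 kcal/mol. Of the 889 tested genes with an 8mer in the 3′ UTR of any coding transcript, 25.9% were called lower and 3.49% higher, and their median log2 fold change was -0.12. Over all 13460 genes in that search, 8.44% were called lower and 6.63% higher.

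SYNJ2, the broadly expressed synaptojanin, stood at 26.2, 25.3 and 24.6 CPM in the control and 21.5, 23.4 and 25.7 CPM with miR-34a. The groups overlapped, with the highest miR-34a library inside the control range. Its log2 fold change was -0.11 ± 0.09 (SE), with a 95% interval from -0.29 to 0.08. Its coding sequence holds 2 8mers, printed above, at chr6:158028838-158028845 and chr6:158083533-158083540, and its 3′ UTR of 2812 bases holds no match. Only 99 of 13460 genes searched (0.736%) had at least 2 coding 8mers. Of the 99, 21 (21.2%) were called lower and 0% higher, beside 8.44% and 6.63% of the 13460. Of the 55 of these that had no 3′ UTR match, 7 (12.7%) were called lower and 0% higher, and the median log2 fold change was -0.06. Over the 12943 genes with a 3′ UTR of at least 50 bases, 8.43% were called lower and 6.74% higher.

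**Figure D4:**
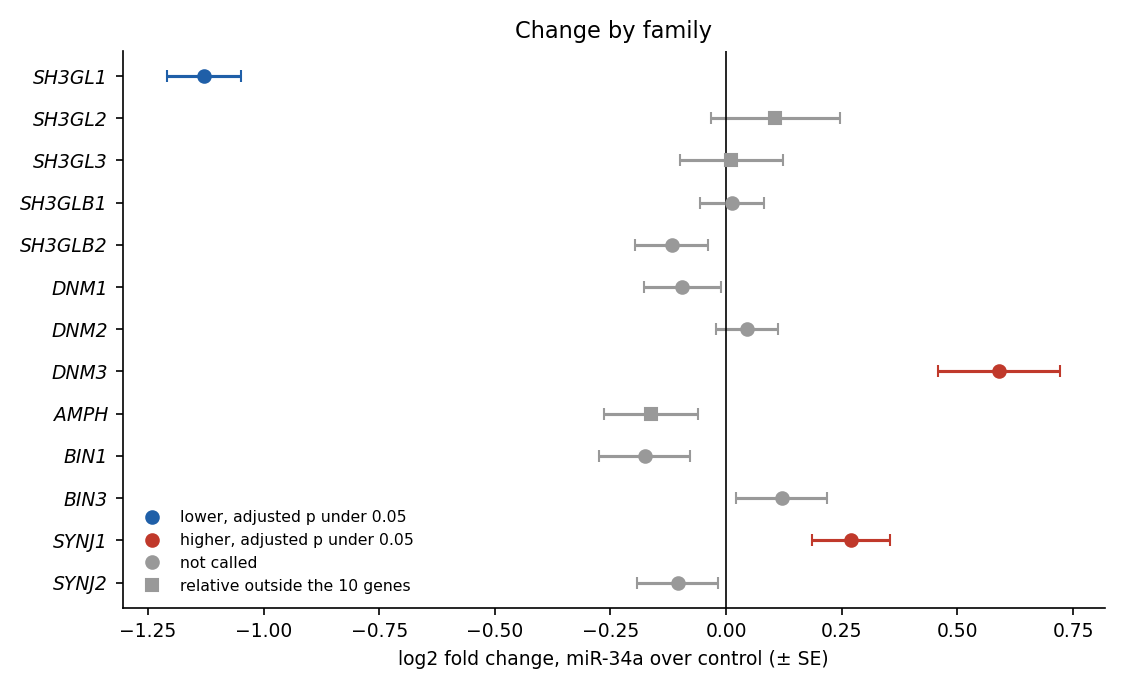
Log2 fold change, miR-34a over control, with its SE, for the 10 genes (circles) and for SH3GL2, SH3GL3 and AMPH (squares), by family. SH3GL1, which was chosen for its fall, stands at -1.13, DNM3 (0.59) and SYNJ1 (0.27) were called higher, and the other genes lie between -0.18 and 0.12.

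Per kb of merged exons, the order of the 10 genes differed between the groups at its top and between BIN1 and BIN3. In the control libraries SH3GL1 ranked first, at 32.9 ± 1.20 CPM per kb of merged exons (SD, n = 3), before SH3GLB1 at 16.7 ± 0.982, DNM2 at 14.1 ± 0.328 and SH3GLB2 at 10.2 ± 0.795. SYNJ1 followed at 5.49 ± 0.638, DNM1 at 4.14 ± 0.226, BIN1 at 3.02 ± 0.362, BIN3 at 2.69 ± 0.109, SYNJ2 at 2.03 ± 0.0641 and DNM3 at 0.521 ± 0.0611. Of these neighbours, BIN1 and BIN3 overlapped over the 3 libraries and the rest did not. With miR-34a, SH3GL1 stood at 15.1 ± 1.92 CPM per kb, and it overlapped both SH3GLB1 above it, at 16.8 ± 0.204, and DNM2 below it, at 14.6 ± 0.746. BIN3, at 2.93 ± 0.0300 CPM per kb, then stood above BIN1, at 2.69 ± 0.186, without overlap. The order depends on the length used. Per kb of the longest coding transcript the control order began with DNM2 at 53.1, SH3GL1 at 48.2, SH3GLB2 at 35.0 and SH3GLB1 at 17.8 CPM per kb, and the miR-34a order with DNM2 at 54.7, SH3GLB2 at 32.3, SH3GL1 at 22.1 and SH3GLB1 at 17.9. DNM2 was thus first in both groups on that scale, because merged exons count many bases of DNM2 and SH3GLB2 that are not in that transcript.

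Most other genes of the endocytic machinery did not pass the test. In 11 lists of related genes, 93 of 95 genes were tested, of which 10 fell (10.8%), 2 rose (2.15%) and 81 did not pass, beside 6.7% and 5.38% over all tested genes. The median log2 fold change of the 93 was 0.01. The shares over all tested genes are also the background for each list below. The lists were chosen with earlier results of these data known, so nothing is read from the count of any 1 list. BIN2 and CAVIN3 were below the filter on low counts. No change in these lists was as large as that of SH3GL1, but SH3GL1 was chosen for the size of its fall, so nothing is read from this. The lowest log2 fold change was -0.61 and the highest 0.33. In the transcript with the longest coding sequence, 10 of the 93 genes had a 3′ UTR 8mer. Of these, MFN2, SNX9 and ARHGAP26 fell and 7 were not called, beside 27.8% lower and 3.53% higher of all 679 such genes. Of the 53 with no match in that transcript, MIEF1 and FCHO1 fell, CD2AP and NECAP1 rose and 49 were not called. Of all 8940 such genes, 4.90% were called lower and 7.40% higher. The other falls were 1 of 6 genes with a 7mer-m8 as strongest match, 1 of 5 with a 7mer-A1, 2 of 14 with a 6mer and 1 of 5 not classed.

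In the list of the clathrin coat and its adaptor AP2, 1 of 9 fell, none rose and the median was 0.07. The gene that fell was AP2S1, the small subunit of AP2, from 109 ± 8.39 to 86.7 ± 4.55 CPM (SD, n = 3; log2 fold change -0.33 ± 0.07, edgeR adjusted p = 0.0026). Of 17 coat initiators and scaffolds, 1 fell and 2 rose. CD2AP, an adaptor that links receptors to endophilin and actin, rose from 86.8 ± 7.87 to 109 ± 1.23 CPM (0.33 ± 0.07, edgeR adjusted p = 0.0030).

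The other 2 calls in the scaffold list were less firm. NECAP1, which binds AP2, rose with a log2 fold change of 0.25 ± 0.07 (edgeR adjusted p = 0.024). Its adjusted p was 0.0999 when control replicate 2 was left out, 0.083 and 0.10 when miR-34a replicates 1 and 2 were, and 0.053 with a replicate block. FCHO1, an initiator of coated pits, fell with -0.41 ± 0.14 (edgeR adjusted p = 0.049), a call lost in 9 of 12 alternative fits, with adjusted p from 0.053 to 0.20 in those 9. Single libraries whose omission ended it were control replicates 1 (adjusted p = 0.053), 2 (0.17) and 3 (0.095) and miR-34a replicates 1 (0.20) and 2 (0.084).

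Among 12 F-BAR and PX-BAR proteins, which bend membrane as the endophilins do, 2 fell and none rose, with a median log2 fold change of -0.06. SNX9, a partner of dynamin, fell from 72.1 ± 3.45 to 59.6 ± 2.33 CPM (SD, n = 3; log2 fold change -0.28 ± 0.07, edgeR adjusted p = 0.010). Its adjusted p was 0.05008 without control replicate 3, 0.05002 without miR-34a replicate 2 and 0.053 without miR-34a replicate 3. ARHGAP26, or GRAF1, of clathrin-independent uptake, fell with -0.39 ± 0.12 (edgeR adjusted p = 0.025). When control replicate 1 was left out its log2 fold change was -0.23 and its adjusted p 0.18. Leaving out miR-34a replicates 1 and 2 in turn gave adjusted p of 0.070 and 0.10.

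On the lipid side, PIP5K1A, a kinase that makes the phosphoinositide which SYNJ1 removes, fell from 246 ± 13.0 to 173 ± 1.37 CPM (SD, n = 3; log2 fold change -0.51 ± 0.07, edgeR adjusted p = 5.9e-06). It was the 1 of 10 phosphoinositide kinases and phosphatases that was called, and none rose. Among 5 autophagy partners of SH3GLB1, ATG9A alone was called. ATG9A, the lipid-moving membrane protein of early autophagosomes, fell from 41.9 ± 1.84 to 27.4 ± 1.33 CPM (-0.61 ± 0.08, edgeR adjusted p = 4.4e-06). Both calls held in all 12 alternative fits.

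The dynamin relatives of mitochondria and their partners included 3 falls among 8 genes (37.5%), and no rise, with a median of -0.05. Over all tested genes 6.7% were called lower and 5.38% higher. DNM1L, or DRP1, which divides mitochondria, fell from 164 ± 7.27 to 133 ± 3.90 CPM (SD, n = 3; log2 fold change -0.30 ± 0.07, edgeR adjusted p = 0.0030). MIEF1, a receptor of DNM1L on the outer membrane, fell from 183 ± 6.48 to 137 ± 6.64 CPM (-0.42 ± 0.07, edgeR adjusted p = 9.7e-05). MFN2, which fuses mitochondria, fell from 202 ± 6.56 to 166 ± 5.49 CPM (-0.29 ± 0.07, edgeR adjusted p = 0.0044). These 3 calls held in all 12 alternative fits.

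In the caveolae list 1 of 4 tested genes fell and none rose. CAVIN1, a caveolar coat protein, went from 29.5 ± 2.68 to 22.2 ± 0.862 CPM (SD, n = 3; log2 fold change -0.41 ± 0.09, edgeR adjusted p = 0.0020). None of 3 uncoating chaperones, 14 actin genes and 8 cargo receptors was called in either direction. The most expressed of each were the chaperone HSPA8, with a log2 fold change of 0.04 ± 0.07 (edgeR adjusted p = 0.80), the Arp2/3 subunit ACTR2, with 0.14 ± 0.07 (0.22), and the transferrin receptor TFRC, the standard cargo of clathrin-coated pits, with 0.05 ± 0.07 (0.73).

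**Figure D5:**
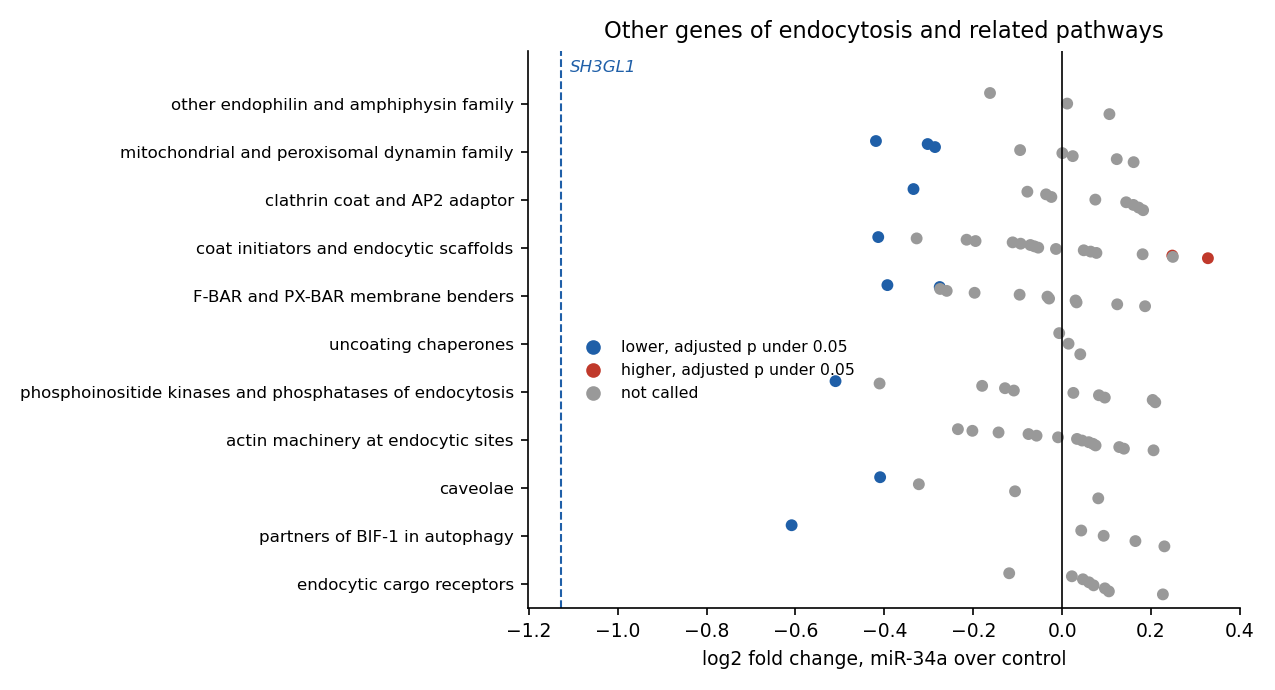
Log2 fold change, miR-34a over control, of the 93 tested genes of 11 lists related to endocytosis, 1 point per gene, with called genes in colour and the value of SH3GL1 as a dashed line. The points lie between -0.61 and 0.33, all to the right of SH3GL1, which was chosen for the size of its fall.

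The genes whose levels over the 6 libraries were most like those of SH3GL1 were sought by the Pearson correlation of log2 CPM among 9925 protein-coding genes whose mean log2 CPM was 3 or more. They were SHMT1 (r = 0.9997), SZRD1 (0.9996), TPRN (0.999), SEZ6L2 (0.998) and SURF4 (0.998). The 6 points share the split into 2 groups, and any gene with a clean difference scores high, so r is a description only. All 5 fell with miR-34a, by less than SH3GL1. Their direction follows from how they were sought, since SH3GL1 was chosen for its fall, so it is not a result. The largest of these falls was that of SURF4, a cargo receptor of the endoplasmic reticulum, from 217 to 116 CPM on average (log2 fold change -0.90 ± 0.07).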

How the data were processed

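The authors deposited raw read counts per Ensembl gene for 6 libraries, 3 per group. Per the submitters' processing notes, reads were processed against GRCh38 with featureCounts of Subread 2.0.3, STAR 2.7.11a and edgeR 3.42.4, whose order and roles are not stated. Annotation release, strand setting and the handling of multi-mapped reads: not given in the sources used here. Per the labels' protocols the library kit was TruSeq RNA v2, which does not mark strand. Every row names a gene.

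From these counts, 17427 genes passed filterByExpr (minimum count 10, minimum total 15). Scaling was by TMM, and edgeR 4.0.16 under R 4.3.3 supplied the quasi-likelihood test, with a term for group alone and Benjamini-Hochberg adjustment over all tested genes. P-values weigh the difference between the groups against the spread among libraries of the same group. That spread is moderated over all genes, which gives 24.7 degrees of freedom, and it covers these 6 libraries only. The SE is the log2 fold change divided by the square root of F, and intervals use its t distribution.

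Symbols were matched for 62541 identifiers, all 10 members included. Transcripts, exons and sites are from GENCODE release 29, using the coding transcript with the longest coding sequence. Pairing used RNAduplex of ViennaRNA 2.7.2. Alternatives were DESeq2 1.42.0, other scaling and filters, a replicate block and leaving out each library.

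The 10 genes and the lists were chosen with earlier results of these data known. Named genes are the members, up to 3 called genes per list or else its most expressed gene, genes whose exons overlap a member's, and the 5 genes most correlated with SH3GL1. SH3GL2, AMPH, BIN2 and CAVIN3 were named in addition, after their values were seen. The summed level of the marker list for this line is not reported here.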

Additional observations from a re-analysis of the deposited data

How the results depend on the processing

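Across 12 alternative fits of the same libraries the log2 fold change of SH3GL1 ranged from -1.23 to -1.06. Its fall was used to select the genes, so this range describes the processing and adds no support. DNM3 was called higher in each. The calls lost for SYNJ1 are given with its values. The near-zero log2 fold change of SH3GLB1 ranged from -0.0348 to 0.0520 when 1 library was left out, turned sign without control replicate 2 and was not called. Of the 10 genes, 2 or 3 were called in every fit, and of the 93 pathway genes 8 to 18, against 12. Over all genes, leaving out 1 library gave 1317 to 2681 genes called, 727 to 1394 lower and 525 to 1287 higher, against 2105, 1167 and 938. The fewest in all and higher came without control replicate 2, the fewest lower without miR-34a replicate 2. The replicate block gave 1830 genes called and changed the call of none of the 10 genes. Whether the replicate numbers pair the libraries is not stated. Same-numbered libraries had correlations of -0.03, 0.02 and -0.08 in their deviations from the group means. Differently numbered ones had correlations from -0.06 to 0.09. With 3 libraries per group these values show no pairing but cannot exclude a weak one. Searching every coding transcript raised the matches of 7 or 8 bases to 2 in DNM1 and DNM3 and 1 in SYNJ1. Level per kb depends on the length chosen, as given for the order of levels. Counts per gene cannot show which transcript ends were used, and DNM3, at 5.11 to 9.35 CPM, rests on the fewest reads.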
